A study of Mus musculus with 8 samples.

Results

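Cancer cells carry ligands on their surface that T cells, natural killer (NK) cells and macrophages read when deciding whether to attack. The genes of 10 of them are described here in cultured mouse pancreatic cancer cells: Cd274, which encodes PD-L1, together with Cd276, Tnfrsf14, Tnfsf9, Lgals9, Cd47, Icam1, Pvr, Nectin2 and H60b. They were chosen by name, as ligands of T cells, NK cells and macrophages, with earlier results of these data known. The genes were found in the count table by matching its Ensembl identifiers to gene symbols. All 10 were present among the 42687 genes of the table, and all 10 passed the filter on low counts, which left 15197 genes. RNA was sequenced from a single clone of low immunogenicity, isolated from KPCY mice, in which Pdx1-Cre switches on oncogenic alleles, Trp53 R172H among them, and a Rosa26 YFP reporter in the pancreatic lineage. All groups share these alleles, and the sample labels enter the genotype as WT. The cells went through 8 rounds of overnight exposure and reseeding with PBS, with 15 µg/mL of ATEVs, with 30 µg/mL of NTEVs, or with 15 µg/mL of ATEVs that had been pretreated with Baseline-ZERO DNase. NTEVs are extracellular vesicles (EVs) from T cells that were not activated. ATEVs are read here, by contrast, as vesicles from activated T cells. The labels give an equivalent of 5 µg/mL of EV-DNA after the NTEV amount, and whether it also holds for the ATEV amount is not explicit. No group received DNase without ATEVs, so a direct effect of the enzyme on the cells cannot be told apart from its action on the vesicles. Each group had 2 libraries. Nothing tells whether these were separate cultures, so the p-values rest on a spread between libraries that may be technical only.

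PD-L1 binds PD-1 on T cells and restrains them, and tumour cells are known to make more of it under interferon gamma, which acts through the kinases Jak1 and Jak2 and induces the transcription factor Irf1. The other ligands act through receptors of their own. HVEM, the product of Tnfrsf14, engages BTLA, CD160 and LIGHT, Cd47 signals to macrophages through SIRPα and holds back phagocytosis, Icam1 is the adhesion ligand of LFA-1, and Pvr and Nectin2 bind both the activating receptor DNAM-1 and the inhibitory receptor TIGIT. H60b is a mouse ligand of NKG2D, the activating receptor of NK cells.

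The libraries held 34385326 to 52451398 counts. Of 9 markers of pancreatic ductal epithelium, all 9 passed the filter, with summed levels of 8818 to 11780 counts-per-million (CPM, scaled by TMM). Epcam (6.44 to 29.9 CPM), Sox9 (3.82 to 9.11 CPM) and Cldn4 (0.0230 to 2.04 CPM) were low and added little to that sum. Of 21 markers of T and NK cells 2 passed, Lck and Trac. The list summed to 6.42 to 12.1 CPM, within 11.2 to 12.1 with PBS, 8.67 to 11.2 with ATEVs, 6.42 to 8.66 with NTEVs and 8.89 to 11.7 with DNase-treated ATEVs, and Cd2, Cd5, Cd8a and Prf1 were at 0 in every library. The part of such cells in the results was not tested. The PBS libraries stood apart on principal component 1, at -63.3 and -73.4, against -14.8 to 62.6 in the other 6.

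The 250 bases before the transcription start of a gene are shown for 4 of the ligands, because 3 of them hold a match to an interferon-linked motif and Cd274 does not. The sequences come from RefSeq on GRCm38.p6, are written 5′ to 3′ on the gene's strand, and have matches in capitals.
Cd274: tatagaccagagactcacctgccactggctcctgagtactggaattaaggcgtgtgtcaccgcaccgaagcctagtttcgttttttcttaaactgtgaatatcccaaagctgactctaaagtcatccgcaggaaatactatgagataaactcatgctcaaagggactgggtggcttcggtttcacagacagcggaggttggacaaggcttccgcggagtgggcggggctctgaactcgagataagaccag
Tnfrsf14: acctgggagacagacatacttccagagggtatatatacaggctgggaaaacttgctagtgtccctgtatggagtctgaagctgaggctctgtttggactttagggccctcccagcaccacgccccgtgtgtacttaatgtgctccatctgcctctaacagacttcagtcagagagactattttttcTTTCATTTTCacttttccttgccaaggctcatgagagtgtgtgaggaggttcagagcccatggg
Icam1: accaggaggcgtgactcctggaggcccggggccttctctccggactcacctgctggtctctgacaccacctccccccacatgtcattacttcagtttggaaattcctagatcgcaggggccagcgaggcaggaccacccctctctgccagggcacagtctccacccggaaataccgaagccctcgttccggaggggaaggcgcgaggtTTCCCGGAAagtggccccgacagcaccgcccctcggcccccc
Lgals9: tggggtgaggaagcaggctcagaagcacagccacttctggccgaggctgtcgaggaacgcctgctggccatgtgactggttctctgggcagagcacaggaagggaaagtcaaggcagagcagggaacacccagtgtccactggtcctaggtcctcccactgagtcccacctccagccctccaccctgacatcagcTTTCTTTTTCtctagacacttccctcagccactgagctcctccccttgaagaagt
They lie at chr19:29367188-29367437 (plus strand), chr4:154928078-154928327 (minus strand), chr9:21015690-21015939 (plus strand) and chr11:78984925-78985174 (minus strand), in the same order. The search used windows of 300 bases, with 250 before and 50 after the start, on both strands. It looked for the interferon gamma activated site (GAS) TTCNNNGAA, for the interferon regulatory factor (IRF) element, which is GAAA, any 2 bases and GAAA, and for the NF-kB consensus, and no matches overlapped. Tnfrsf14 holds an IRF element on the opposite strand, 64 to 55 bases before the start. Icam1 holds a GAS 42 to 34 bases before the start. Lgals9 holds an IRF element 55 to 46 bases before the start and another 15 to 24 bases after it, beyond the stretch printed. Both Lgals9 matches are on the opposite strand. Windows were found for 7 of the 10 genes, and those of Cd274, Cd47, Nectin2 and Cd276 had no match. Among all 32841 windows, 8.30% hold the GAS, 3.44% the IRF element and 4.51% the NF-kB consensus. A match of this kind is a description of the letters and not a measured site.

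In PBS-treated cells the ligands ranged over a wide span of levels, given as CPM per kilobase of exon so that genes can be compared. Lgals9, which encodes galectin-9, a ligand of TIM-3, was highest at 175 ± 7.95 (SD, n = 2). Cd47 followed at 25.1 ± 0.676 and Pvr at 21.2 ± 3.47. Tnfsf9, which encodes the costimulatory ligand of 4-1BB, was at 14.1 ± 1.40, Cd276, which encodes the B7 family member B7-H3, at 12.5 ± 3.78, and Nectin2 at 11.2 ± 4.08. These last 3 did not differ beyond their spread. Cd274 and Icam1 came next, at 4.99 ± 0.167 and 4.22 ± 0.834, within their spread of each other, and H60b at 1.46 ± 0.304 and Tnfrsf14 at 0.429 ± 0.0560 were lowest. With ATEVs the order changed below Cd47 (39.8 ± 0.510). Icam1 was then at 30.1 ± 13.0, Nectin2 at 22.5 ± 6.64, Pvr at 22.4 ± 1.94 and Cd274 at 18.5 ± 4.35, which did not differ beyond their spread, and H60b was lowest at 0.491 ± 0.0508.

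**Figure D1:**
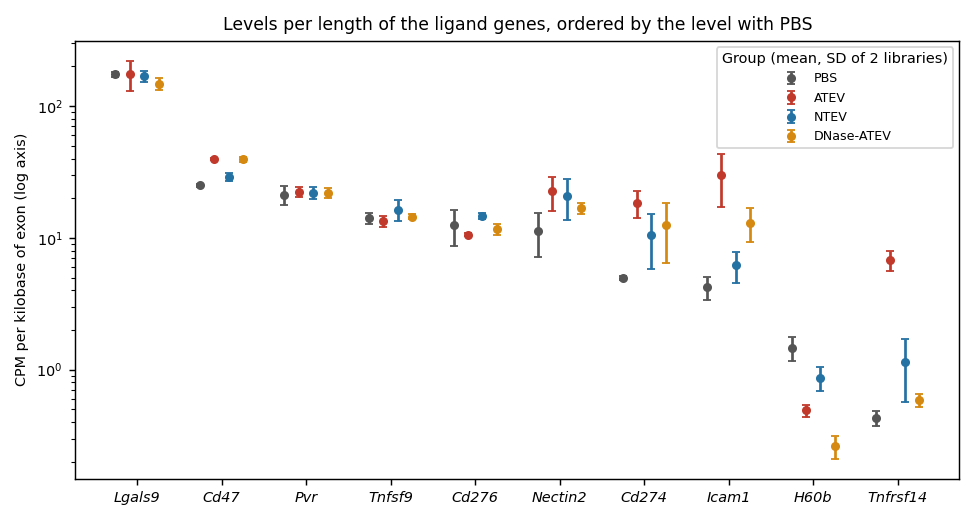
Levels of the 10 ligand genes as CPM per kilobase of exon on a log axis, ordered by the level with PBS. Points are means and bars the SD of the 2 libraries of a group. Lgals9 was the highest in every group, and Tnfrsf14 and Icam1 show the widest gap between ATEVs (red) and PBS (grey).

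Exposure to ATEVs, set against PBS to learn how these cells respond to vesicles from activated T cells, was accompanied by more RNA of 4 of the 10 ligands. By edgeR's quasi-likelihood test Tnfrsf14, Icam1, Cd274 and Cd47 rose and 0 fell. Over all genes tested, 3.52% were called higher and 1.66% lower. An unadjusted p under 0.05 was reached by 6 of the 10 ligands and by 21.9% of all genes. The median log2 fold change was 0.37 over the ligands and -0.02 over all genes. Both ATEV libraries lay above both PBS libraries for 5 ligands and below them for 1, against 25.2% and 27.3% of all genes. Because the ligands were chosen with earlier results of these data known, these shares are a description and no independent test. In bulk RNA a change in the number of cells that make a transcript and a change in RNA per cell cannot be told apart.

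Tnfrsf14 (ENSMUSG00000042333) had the largest difference of the 10. It was at 0.505 and 0.608 CPM in the PBS libraries (26 and 20 counts) and at 9.93 and 7.69 CPM in the ATEV libraries (432 and 337 counts). Both ATEV libraries were thus far above all others, since NTEVs gave 0.958 and 2.02 CPM and DNase-treated ATEVs 0.823 and 0.697 CPM. The log2 fold change against PBS was 3.99 ± 0.43 (SE), a 15.9-fold difference (edgeR adjusted p = 0.00355).

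Icam1 (ENSMUSG00000037405) was at 12.2 and 9.21 CPM with PBS and at 99.7 and 52.9 CPM with ATEVs. NTEVs gave 12.7 and 18.6 CPM and DNase-treated ATEVs 39.7 and 26.4 CPM, so the 4 groups did not overlap, although the ATEV libraries differed widely from each other. Against PBS the rise with ATEVs was 7.12-fold (log2 2.83 ± 0.38 SE, edgeR adjusted p = 0.00903).

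Cd274 (ENSMUSG00000016496) was at 18.5 and 17.7 CPM with PBS and at 55.7 and 78.0 CPM with ATEVs, a 3.69-fold difference (log2 1.89 ± 0.42 SE, edgeR adjusted p = 0.0491). NTEVs gave 26.0 and 50.3 CPM and DNase-treated ATEVs 29.9 and 60.5 CPM. All 6 EV-treated libraries were above both PBS libraries, and in each EV group the library numbered 2 was the higher. The higher DNase-treated library lay between the ATEV libraries.

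Cd47 (ENSMUSG00000055447) had a small and tight difference. It was at 159.5 and 153.5 CPM with PBS and at 250.3 and 246 CPM with ATEVs, 1.58-fold higher (log2 0.66 ± 0.12 SE, edgeR adjusted p = 0.0255). DNase-treated ATEVs gave 252 and 238 CPM, which straddle the ATEV values, and NTEVs gave 172 and 191 CPM, between the PBS and ATEV values.

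Each of these 4 calls needed both PBS libraries. When PBS library 1 was left out, the edgeR adjusted p was 0.0622 for Tnfrsf14, 0.0796 for Icam1, 0.237 for Cd274 and 0.159 for Cd47, and without PBS library 2 it was 0.0553, 0.113, 0.271 and 0.195. Cd274 and Cd47 also lost their calls without ATEV library 1 (edgeR adjusted p 0.0766 and 0.0794) or without ATEV library 2 (0.171 and 0.105). Their direction was the same in all of these fits. Fitted on the 4 PBS and ATEV libraries alone, Cd47 did not pass (edgeR adjusted p = 0.0638).

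**Figure D2:**
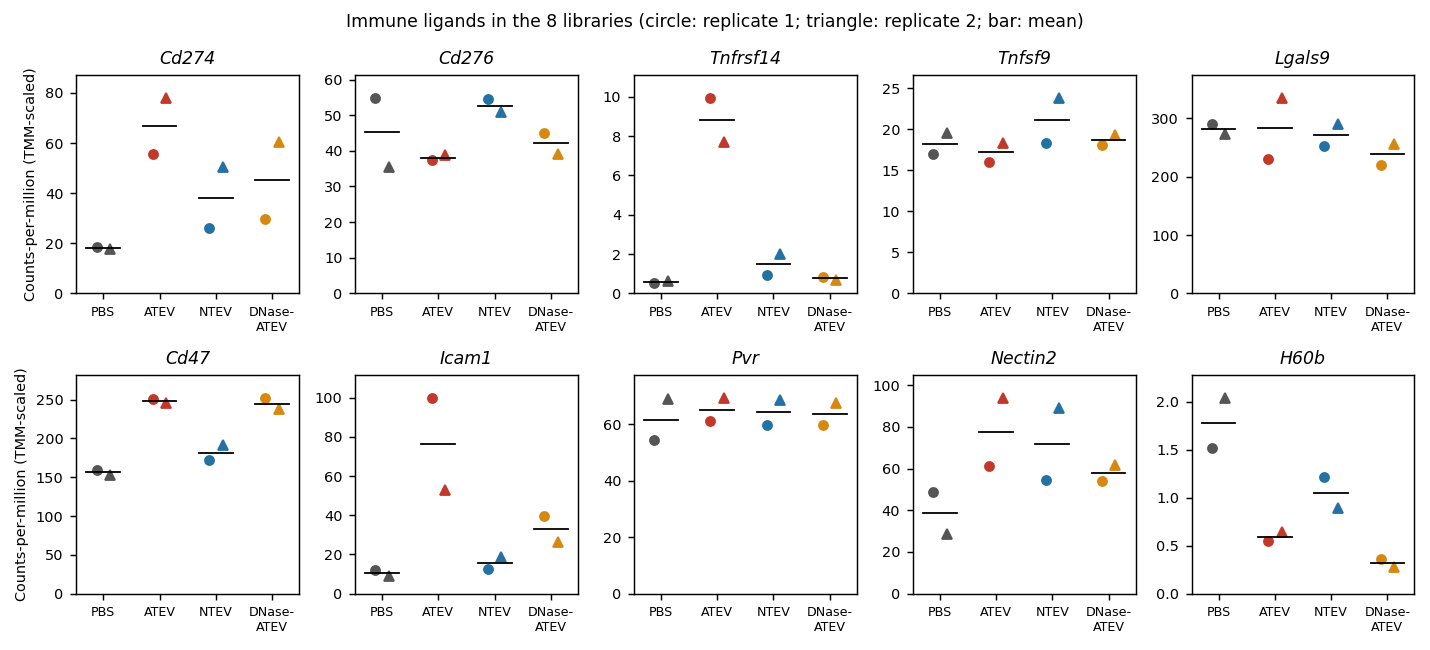
CPM of the 10 ligand genes in each of the 8 libraries, on linear axes from 0. Circles are libraries numbered 1, triangles libraries numbered 2, and bars group means. Tnfrsf14 is high in the ATEV libraries (9.93 and 7.69 CPM), Cd274 is above PBS in all 6 EV-treated libraries, and H60b is below PBS in all 6.

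Nectin2, a ligand of DNAM-1 and TIGIT, and H60b did not pass with ATEVs. Nectin2 (ENSMUSG00000062300) was at 48.6 and 28.8 CPM with PBS, 61.3 and 93.7 CPM with ATEVs, 54.5 and 89.0 CPM with NTEVs, and 54.1 and 61.9 CPM with DNase-treated ATEVs. All EV-treated libraries were above both PBS libraries, and the PBS libraries differed widely from each other. The log2 fold change with ATEVs was 1.00 ± 0.34 (SE, edgeR adjusted p = 0.149), and DESeq2 called it (adjusted p = 0.0467). H60b (ENSMUSG00000075297), counted at low depth, had 78 and 67 counts with PBS against 24 and 28 with ATEVs, or 1.52 and 2.04 against 0.552 and 0.639 CPM. Its log2 fold change with ATEVs was -1.57 ± 0.36 (SE, edgeR adjusted p = 0.0549), and DESeq2 called it (adjusted p = 0.0214). The H60 genes resemble each other, so its reads may be split uncertainly.

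The remaining 4 ligands had small differences in this comparison. Pvr (ENSMUSG00000040511) was at 54.5 and 68.8 CPM with PBS and at 61.2 and 69.2 CPM with ATEVs, and its values in all 8 libraries stayed between 54.5 and 69.2 CPM. The 95% interval of its log2 fold change was -0.31 to 0.47. Lgals9 (ENSMUSG00000001123) was at 291 and 273 CPM with PBS and at 231 and 335 CPM with ATEVs, so that the ATEV libraries straddled the PBS libraries (95% interval -0.45 to 0.47). Tnfsf9 (ENSMUSG00000035678) was at 16.96 and 19.5 CPM with PBS and at 16.1 and 18.3 CPM with ATEVs (95% interval -0.52 to 0.35). Cd276 (ENSMUSG00000035914) was at 54.8 and 35.5 CPM with PBS and at 37.3 and 38.7 CPM with ATEVs (95% interval -0.74 to 0.24). For these genes the intervals leave room for differences of up to 0.74 on the log2 scale.

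With NTEVs, the vesicles of T cells that were not activated, 0 of 10 ligands passed edgeR against PBS. DESeq2 called 1, Tnfrsf14, where it called 770 over all genes. An unadjusted p under 0.05 was reached by 3 ligands, all higher with NTEVs. Over all genes edgeR called 0.704% higher and 0.408% lower, and at the unadjusted threshold 10.3% were higher and 8.85% lower. The 3 were Cd274 (log2 1.08 ± 0.41 SE, edgeR adjusted p = 0.227), Tnfrsf14 (log2 1.41 ± 0.41 SE, edgeR adjusted p = 0.152) and Nectin2 (log2 0.89 ± 0.34 SE, edgeR adjusted p = 0.229). Both NTEV libraries were above both PBS libraries for 5 ligands and below for 1, against 28.6% and 30.9% of all genes. Icam1 was 1.46-fold and Cd47 1.16-fold above PBS (edgeR adjusted p = 0.412 and 0.343). H60b had 62 and 36 counts, 1.21 and 0.896 CPM, both below the PBS libraries (log2 -0.74 ± 0.35 SE, edgeR adjusted p = 0.288). For Pvr, Lgals9, Tnfsf9 and Cd276 the libraries of the NTEV and PBS groups overlapped, with 95% intervals of -0.33 to 0.45, -0.52 to 0.41, -0.23 to 0.65 and -0.27 to 0.71.

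With ATEVs that had been pretreated with DNase, Cd47 rose and H60b fell against PBS. Over all genes 2.16% were called higher and 0.855% lower. Cd47 was 1.57-fold higher (log2 0.65 ± 0.12 SE, edgeR adjusted p = 0.0403). H60b was at 0.363 and 0.274 CPM (15 and 11 counts), below all 6 other libraries, and fell by 2.46 ± 0.38 (SE) on the log2 scale (edgeR adjusted p = 0.0270). Against untreated ATEVs it was lower without passing (log2 -0.90, edgeR adjusted p = 0.454). Cd274 and Icam1 were above PBS without passing, at log2 1.32 ± 0.41 (SE, edgeR adjusted p = 0.118) and 1.62 ± 0.37 (SE, edgeR adjusted p = 0.0623). DESeq2 called both (adjusted p = 0.0210 and 0.000519), and Icam1 also passed edgeR in a fit of the 4 libraries concerned alone (adjusted p = 0.0299). Tnfrsf14 was 1.37-fold above PBS (edgeR adjusted p = 0.515). The libraries of the groups did not overlap for 7 ligands, 5 higher and 2 lower, against 29.7% and 30.9% of all genes. The Cd47 and H60b calls were each lost when any 1 of the 4 libraries was left out. Without PBS library 1, PBS library 2, DNase-treated library 1 and DNase-treated library 2 in turn, the edgeR adjusted p of Cd47 was 0.211, 0.263, 0.110 and 0.163, and that of H60b was 0.149, 0.194, 0.0882 and 0.167. Fitted on these 4 libraries alone, Cd47 did not pass (edgeR adjusted p = 0.054). Lgals9 was at 220.0 and 257 CPM, below both PBS libraries (log2 -0.24, 95% interval -0.70 to 0.22). Pvr, Tnfsf9 and Cd276 overlapped with PBS, with 95% intervals of -0.34 to 0.43, -0.40 to 0.47 and -0.59 to 0.39.

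Compared directly, ATEVs gave more Tnfrsf14 and Icam1 than NTEVs, at 15 against 30 µg/mL of vesicles. Tnfrsf14 was 5.95-fold (log2 2.57 ± 0.39 SE, edgeR adjusted p = 0.0311) and Icam1 4.88-fold higher (log2 2.29 ± 0.37 SE, edgeR adjusted p = 0.0392), while 1.05% of all genes were called higher and 0.145% lower. Both calls were lost without ATEV library 1 (edgeR adjusted p = 0.136 and 0.107) and without NTEV library 1 (0.140 and 0.272), that of Icam1 also without NTEV library 2 (0.124). Without NTEV library 2 the log2 fold change of Tnfrsf14 was 3.20. Fitted on the 4 libraries of these groups alone, neither passed (edgeR adjusted p = 0.179 and 0.173). Cd47 was 1.37-fold and Cd274 1.75-fold higher with ATEVs, with no overlap of libraries, and neither passed (edgeR adjusted p = 0.205 and 0.747). The 95% interval for Cd274 ran from -0.14 to 1.76 on the log2 scale. Both ATEV libraries were above both NTEV libraries for 4 ligands, against 13.7% of all genes, and below them for 3 (Tnfsf9, Cd276 and H60b), against 16.3%.

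DNase pretreatment of the ATEVs was accompanied by less Tnfrsf14. It fell by 3.53 ± 0.41 (SE) on the log2 scale between untreated and DNase-treated ATEVs, an 11.6-fold difference (edgeR adjusted p = 0.0148). Over all genes 0.0855% were higher and 0.579% lower with DNase treatment. The call was lost without ATEV library 1 (edgeR adjusted p = 0.0627), DNase-treated library 1 (0.162) or DNase-treated library 2 (0.175), and kept without ATEV library 2 (0.0207). Icam1 was 2.31-fold lower with DNase treatment without passing (log2 -1.21 ± 0.36 SE, edgeR adjusted p = 0.272), with no overlap of libraries, and DESeq2 called it (adjusted p = 0.0454). Cd274 was 1.48-fold lower, with overlapping libraries and a 95% interval of -1.51 to 0.38 on the log2 scale (edgeR adjusted p = 0.689). Cd47 did not move beyond its spread, at -0.02 ± 0.12 (SE) with a 95% interval of -0.29 to 0.26. Mean levels with DNase-treated ATEVs can be set beside those of the other groups, without a test between genes. Tnfrsf14 was at 0.760 ± 0.0891 CPM, near the PBS mean of 0.556 ± 0.0727, Icam1 at 33.1 ± 9.39 CPM lay between PBS (10.7 ± 2.11) and ATEVs (76.3 ± 33.1), and Cd47 at 245 ± 9.53 CPM lay by the ATEV mean of 248 ± 3.18. H60b was lower with DNase treatment without passing (log2 -0.90, edgeR adjusted p = 0.454). Libraries of the DNase-treated and untreated ATEV groups did not overlap for 4 ligands, against 19.4% of all genes higher and 16.8% lower. With DNase treatment 1 was higher (Cd276) and 3 were lower (Tnfrsf14, Icam1 and H60b).

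Between DNase-treated ATEVs and NTEVs 0 of 10 ligands passed edgeR, and DESeq2 called 0. Over all genes edgeR called 0.0461% higher and 0.00658% lower. Before adjustment 2 ligands were higher and 2 lower at p under 0.05, against 5.86% and 4.16% of all genes. The higher ones were Cd47 (1.35-fold, edgeR adjusted p = 0.397) and Icam1 (2.12-fold, edgeR adjusted p = 0.442). The lower ones were H60b (log2 -1.72 ± 0.38 SE, edgeR adjusted p = 0.322) and Tnfrsf14 (log2 -0.96 ± 0.40 SE, edgeR adjusted p = 0.493). Libraries did not overlap for these 4 and for Cd276, which was at 45.0 and 39.2 CPM with DNase-treated ATEVs and at 54.5 and 50.8 CPM with NTEVs. That made 2 higher and 3 lower ligands, against 20.3% and 18.3% of all genes.

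**Figure D3:**
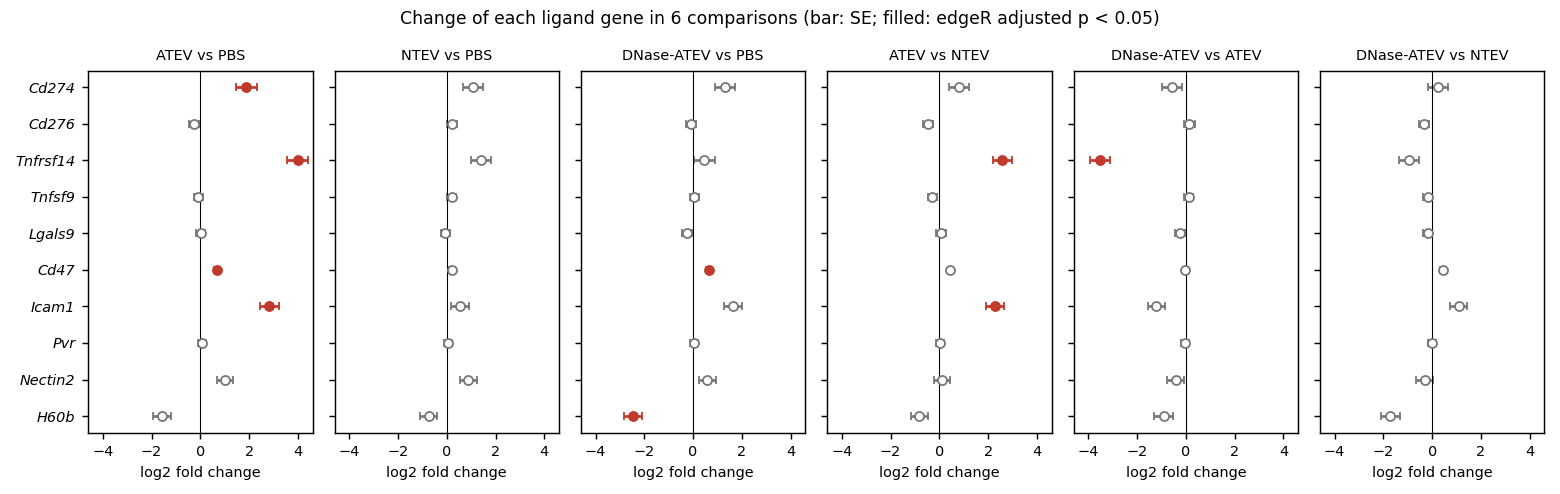
The log2 fold change of each ligand gene (rows) in the 6 comparisons (panels, first group against second), with bars for the SE. Filled points passed edgeR's quasi-likelihood test at an adjusted p under 0.05, which were 4, 0, 2, 2, 1 and 0 genes from left to right.

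Genes that are known to control PD-L1 moved with ATEVs in part. Of 18 genes of the interferon gamma pathway and of other PD-L1 regulators, all 18 tested, 4 rose and 0 fell against PBS, where 3.52% of all genes were called higher and 1.66% lower. The list's median log2 fold change was 0.25. Irf1 was at 40.9 and 30.3 CPM with PBS and at 393 and 192 CPM with ATEVs (8.20-fold, edgeR adjusted p = 0.00558). Socs1, a feedback inhibitor of Janus kinases, was at 2.04 and 2.61 CPM with PBS and at 32.1 and 9.77 CPM with ATEVs (9.03-fold, log2 3.17, edgeR adjusted p = 0.0229). Its log2 fold change was 2.12 without ATEV library 1 and 3.79 without ATEV library 2. Stat3, a transcription factor activated by interleukins, rose 2.06-fold (edgeR adjusted p = 0.0375). The fourth was Irf2, which can repress interferon-induced genes and which was named after its values were seen (1.54-fold, edgeR adjusted p = 0.0412). The receptor genes Ifngr1 and Ifngr2, the kinase genes Jak1 and Jak2, and Cmtm6, whose product protects PD-L1 protein from degradation, did not pass. All 4 lost their calls without PBS library 1 (edgeR adjusted p = 0.0597 for Irf1, 0.179 for Socs1, 0.169 for Stat3 and 0.153 for Irf2) and without PBS library 2 (0.0814, 0.161, 0.245 and 0.263). Stat3 and Irf2 lost theirs also without ATEV library 1 (0.0846 and 0.116) or 2 (0.138 and 0.130).

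Irf1 was the 1 regulator of the 18 that edgeR called in other comparisons. With NTEVs against PBS edgeR called 0 of 18 and DESeq2 1, and 5 had an unadjusted p under 0.05, against 19.1% of all genes. With DNase-treated ATEVs against PBS edgeR called 0 and DESeq2 1, and 7 had an unadjusted p under 0.05, against 24.7% of all genes. Between DNase-treated ATEVs and NTEVs both tools called 0, and 2 had an unadjusted p under 0.05, against 10% of all genes. Over all genes DESeq2 called 770, 1485 and 167 in these comparisons, in the same order. Between ATEVs and NTEVs 6 of 18 had an unadjusted p under 0.05, against 8.23% of all genes. There edgeR called 1.05% of all genes higher and 0.145% lower. Between DNase-treated and untreated ATEVs 7 of 18 had an unadjusted p under 0.05, against 11.3% of all genes. In that comparison edgeR called 0.0855% of all genes higher and 0.579% lower. DNase-treated ATEVs gave 57.2 and 58.2 CPM of Irf1. Against untreated ATEVs Irf1 fell by 2.34 ± 0.35 (SE) on the log2 scale (edgeR adjusted p = 0.0412). It lost that call without DNase-treated library 1 (edgeR adjusted p = 0.248), DNase-treated library 2 (0.284) or ATEV library 1 (0.0627, with a log2 fold change of -1.76). Against NTEVs, ATEVs gave 6.72-fold more Irf1 (log2 2.75, edgeR adjusted p = 0.0158, and log2 2.16 without ATEV library 1), and the call was lost without NTEV library 1 (0.140) or 2 (0.0637). In a fit of the 4 libraries concerned alone, Irf1 did not pass: its edgeR adjusted p was 0.143 for DNase-treated against untreated ATEVs and 0.139 for ATEVs against NTEVs. In the same kind of fit of ATEVs against PBS, Socs1 (0.0568) and Irf2 (0.0930) lost their calls. Within the ATEV group Irf1, Socs1, Icam1 and Tnfrsf14 were higher in library 1, and Cd274, Nectin2, Stat3 and Lgals9 in library 2. These genes were picked after their values were seen, and no link between them was tested.

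**Figure D4:**
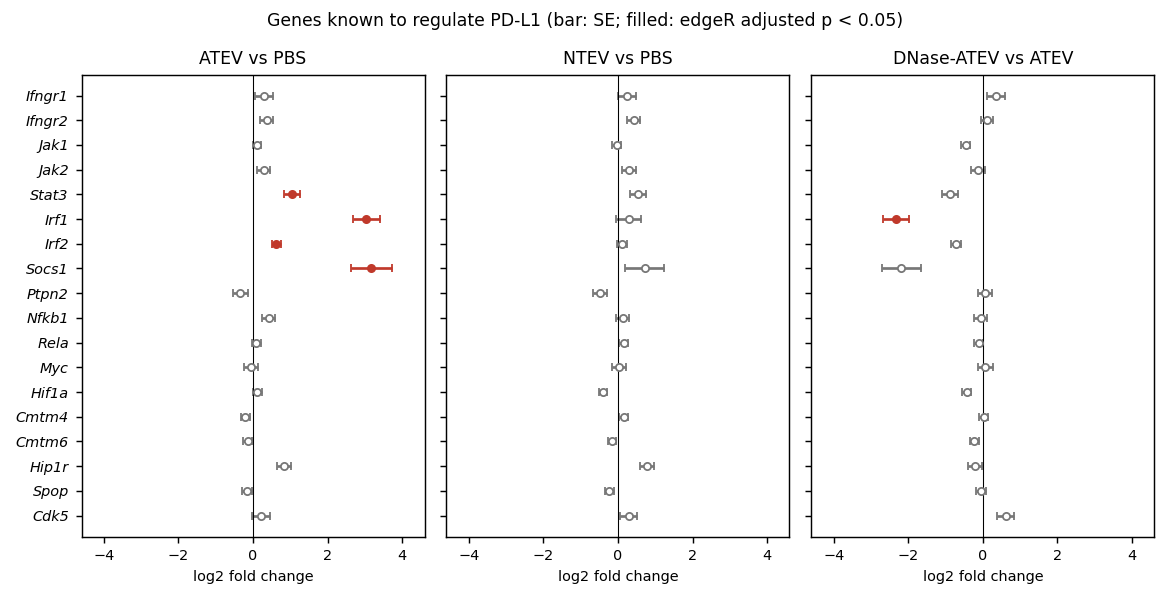
The log2 fold change, with bars for the SE, of 18 genes known to act on PD-L1, in 3 comparisons. Filled points passed edgeR's test at an adjusted p under 0.05, which were 4 genes with ATEVs against PBS, 0 with NTEVs against PBS, and Irf1 with DNase-treated against untreated ATEVs.

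The genes whose pattern over the 8 libraries was most like that of Cd274, by Pearson's r of log2 CPM among 10148 named genes with a mean log2 CPM of at least 2, were Samd9l (r = 0.981), Irf9 (0.981), Rasl11a (0.977), Trafd1 (0.973) and Irf7 (0.970). Irf9 is a DNA-binding subunit of the factor that type I interferons activate, Irf7 is a transcription factor of interferon genes, and Samd9l is an interferon-inducible antiviral gene. The 8 points fall into PBS and EV-treated libraries, so r is a description only. Irf7 was at 5.30 and 5.68 CPM with PBS, 45.3 and 86.3 CPM with ATEVs, 10.97 and 28.0 CPM with NTEVs, and 26.2 and 59.5 CPM with DNase-treated ATEVs. As with Cd274, the library numbered 2 was the higher in each EV group.

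**Figure D5:**
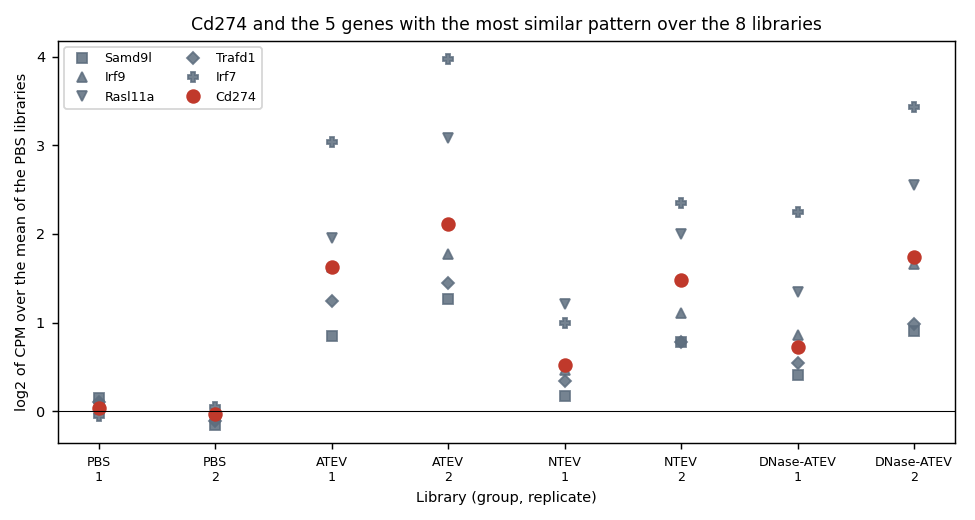
Levels of Cd274 (red) and of the 5 genes with the most similar pattern (grey), as log2 of CPM over the mean of the PBS libraries, in each of the 8 libraries. In each EV group the library numbered 2 lies above library 1 for Cd274, where CPM went from 26.0 to 50.3 with NTEVs and from 29.9 to 60.5 with DNase-treated ATEVs.

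Most other ligands that T cells can read had few counts or did not pass. Of 29 further T cell ligands 12 were tested, and the other 17, among them Cd80, Cd86, Cd70 and Cd40, had at most 12 counts in any library. With ATEVs 1 rose and 1 fell against PBS, where 3.52% and 1.66% of all genes did. Nectin1, a cell adhesion molecule of the nectin family, rose from a very low level (0.0194 and 0.0912 CPM to 0.621 and 0.434 CPM, edgeR adjusted p = 0.0396), and Lgals1, which encodes galectin-1, fell from 1085 ± 2.42 to 564 ± 127 CPM (edgeR adjusted p = 0.0467). The median log2 fold change of the list was 0.09. Nectin1 lost its call without PBS library 1, PBS library 2, ATEV library 1 or ATEV library 2 (edgeR adjusted p = 0.240, 0.120, 0.123 and 0.113). Its log2 fold change of 3.34 was 2.49 without PBS library 1 and 4.57 without PBS library 2. It did not pass by DESeq2 (adjusted p = 0.0568). Lgals1 lost its call without PBS library 1, PBS library 2 or ATEV library 2 (0.205, 0.229 and 0.197). On the 4 libraries concerned alone neither passed (edgeR adjusted p = 0.0780 and 0.0701). Pdcd1lg2, which encodes PD-L2, the other ligand of PD-1, was at 0.261 ± 0.232 CPM with PBS and 0.514 ± 0.370 CPM with ATEVs and did not pass. In the other 5 comparisons edgeR called 0 of the 12, while 2, 5, 2, 4 and 0 had an unadjusted p under 0.05 and DESeq2 called 1, 1, 1, 0 and 0 (NTEVs and DNase-treated ATEVs against PBS, ATEVs against NTEVs, and DNase-treated ATEVs against ATEVs and against NTEVs). In the same order 19.1%, 24.7%, 8.23%, 11.3% and 10% of all genes had an unadjusted p under 0.05, and DESeq2 called 770, 1485, 462, 350 and 167 over all genes.

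Among 17 further NK cell ligands, 13 were in the table by symbol and 9 were tested. H2-T23, which encodes Qa-1, the ligand of the inhibitory receptor NKG2A, was the 1 gene called with ATEVs, where 3.52% of all genes were called higher. It rose from 30.6 and 30.4 CPM with PBS to 105 and 148 CPM (4.15-fold, edgeR adjusted p = 0.0286), and lost the call without PBS library 1 (0.185), PBS library 2 (0.202) or ATEV library 2 (0.100). The median log2 fold change of the list was 1.11, against -0.02 over all genes, but the list went both ways. The median was the value of Clec2h, whose libraries overlapped (edgeR adjusted p = 0.592). At an unadjusted p under 0.05, 3 of the 9 were higher and 2 lower, against 21.9% of all genes in either direction. Both ATEV libraries lay above both PBS libraries for 3 and below them for 4, against 25.2% and 27.3% of all genes. The NKG2D ligands tested beside H60b did not pass: Raet1e was at 28.3 ± 3.57 CPM with PBS and 24.0 ± 0.291 with ATEVs, Ulbp1 at 12.7 ± 1.86 and 7.48 ± 1.38, and Raet1d at 5.55 ± 0.501 and 3.28 ± 0.374. In the other 5 comparisons, in the order given above, edgeR called 0 of the 9, with 1, 3, 1, 2 and 0 at an unadjusted p under 0.05 (19.1%, 24.7%, 8.23%, 11.3% and 10% of all genes). DESeq2 called 0, 2, 1, 1 and 0, against its counts over all genes given for the T cell ligands.

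Genes linked to Cd47 and to phagocytosis showed 1 call. Of 7 listed 6 were tested, and Qpct, which encodes a glutaminyl cyclase related to the one that modifies CD47, rose with ATEVs from 0.155 and 0.213 to 0.713 and 1.60 CPM (log2 2.65, edgeR adjusted p = 0.0483), where 3.52% of all genes were called higher. The call was lost without PBS library 1 (0.260), PBS library 2 (0.229) or ATEV library 2 (0.232, with a log2 fold change of 1.96), and in the fit of the 4 libraries alone (0.0820). Qpctl, which encodes the enzyme that modifies CD47 itself, was at 15.6 CPM with PBS and 17.1 CPM with ATEVs on average and did not pass (edgeR adjusted p = 0.692). Calr, which encodes the phagocytosis signal calreticulin, and Cd24a, the ligand of Siglec receptors, did not pass either (edgeR adjusted p = 0.636 and 0.459). The median log2 fold change of the list was 0.49, against -0.02 over all genes. Lrp1 was at 179.5 and 179.6 CPM with PBS, 246 and 479 CPM with ATEVs and 448 and 868 CPM with NTEVs. It did not pass with ATEVs (log2 1.01, edgeR adjusted p = 0.214) or with NTEVs (log2 1.87, edgeR adjusted p = 0.102). Thbs1 had overlapping libraries with ATEVs and PBS and did not pass (log2 0.85, edgeR adjusted p = 0.582). In the other 5 comparisons edgeR called 0 of the 6, with 1, 0, 1, 1 and 1 at an unadjusted p under 0.05, against the shares of all genes just given. DESeq2 called 1, 0, 1, 0 and 0, against its counts over all genes given for the T cell ligands.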

How the data were processed

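RNA of 8 samples, 2 in each of 4 groups, was sequenced. Per the labels' protocols, the libraries were of the stranded mRNA kind. The authors deposited raw counts per gene in a table of 42687 Ensembl identifiers with 1 column per library. Among tools, the submitters' processing notes list Cufflinks 2.1.1, TopHat2 2.0.11 and bcl2fastq 2.19, and as the build mm9. Which program counted reads, with which annotation and strand setting, is not given in the sources used here, so genes that overlap, also in antisense, have uncertain values. Symbols were found for 42250 identifiers. GENCODE M21 gave the exon lengths, on another build than mm9, so no gene coordinates were taken from it.

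Groups and replicate numbers came from the sample titles. No pair of libraries agreed within sampling noise (chi-square per gene 39.0 to 145 over genes with at least 20 counts). The analysis used edgeR 4.0.16 under R 4.3.3, with filterByExpr, TMM scaling and a quasi-likelihood fit of a mean per group over all 8 libraries (4 residual degrees of freedom, common biological coefficient of variation 0.226). Two-sided p-values received Benjamini-Hochberg adjustment over the 15197 genes tested, with a threshold of 0.05. An exact two-sided permutation test of 2 against 2 cannot go below 0.333. CPM are TMM-scaled, SD is over 2 libraries, and 95% intervals come from the fitted SE. Steps were tested on simulated counts. DESeq2 1.42.0, other scaling, filtering, blocking and leaving out libraries were the alternatives. The members, lists and tests were chosen with earlier results of these data known. Some items are not reported here, among them 1 gene of the list of PD-L1 regulators, and the counts given for that list leave it out. The text names all 10 members, up to 4 genes called per list and comparison by smallest p, or else well-expressed members, and the 5 genes most like Cd274. Other genes are values named for their known role and were chosen after their values were seen.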

Additional observations from a re-analysis of the deposited data

How the results depend on the processing

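The counts of ligands called depended on the settings as follows. With ATEVs against PBS edgeR called 4 of 10, other settings called 3 to 6, and leaving out 1 library gave 0 to 2. With NTEVs against PBS DESeq2 called 1 and edgeR with no filter on low counts 2, against 0. With DNase-treated ATEVs against PBS DESeq2, no filter and the replicate block each called 4, against 2, and leaving out 1 library gave 0. With ATEVs against NTEVs the fit on the 4 libraries concerned called 0, against 2, and leaving out 1 library gave 0 to 2. With DNase-treated against untreated ATEVs DESeq2 and no filter each called 2, against 1, and leaving out 1 library gave 0 to 1. Over all genes, DESeq2 called 1476 with ATEVs against PBS where edgeR called 788, and the fit with no filter 1454. In the other 5 comparisons DESeq2 called 770, 1485, 462, 350 and 167 genes and edgeR 169, 458, 181, 101 and 8. DESeq2 also called 3 NK cell ligands with ATEVs against PBS, where edgeR called 1, and 3 and 4 of the 18 PD-L1 regulators where edgeR called 1 between ATEVs and NTEVs and 1 between DNase-treated and untreated ATEVs. Leaving out 1 library leaves a group with 1, which is then assumed to vary like the other groups.

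Of 300 log2 fold changes of the ligands under settings that kept all libraries of the groups compared, 1 changed sign: Lgals9 with ATEVs against PBS, at -0.017 with the replicate block. When 1 library was left out, 31 of 240 changed sign, and 28 of 36 values called with all libraries lost their call. The values that changed sign belonged to small differences. With ATEVs against PBS their ranges were -0.083 to 0.26 for Pvr, -0.53 to 0.091 for Cd276, -0.29 to 0.29 for Lgals9 and -0.19 to 0.053 for Tnfsf9. With NTEVs against PBS they were -0.11 to 0.23 for Pvr, -0.060 to 0.56 for Cd276 and -0.16 to 0.084 for Lgals9. With DNase-treated ATEVs against PBS they were -0.13 to 0.21 for Pvr, -0.39 to 0.23 for Cd276 and -0.073 to 0.13 for Tnfsf9. Between ATEVs and NTEVs they were -0.085 to 0.13 for Pvr, -0.22 to 0.51 for Nectin2 and -0.23 to 0.32 for Lgals9. Between DNase-treated and untreated ATEVs they were -0.15 to 0.049 for Pvr and -0.51 to 0.039 for Lgals9. Between DNase-treated ATEVs and NTEVs they were -0.37 to 0.79 for Cd274, -0.13 to 0.085 for Pvr, -0.64 to 0.084 for Nectin2 and -0.37 to 0.021 for Tnfsf9. The cause was not tested.

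The shared replicate numbers are not said to mark a culture or day. Deviations of same-numbered libraries correlated across genes at 0.485 to 0.552 between the EV groups and at -0.236 to -0.141 between PBS and the EV groups. With the replicate block the ligands called were 4, 0, 4, 2, 1 and 0 in the 6 comparisons, in the order of the report, and the genes called overall with ATEVs against PBS were 1182. With DNase-treated ATEVs against PBS the block added Cd274 (edgeR adjusted p = 0.0473) and Icam1 (0.0409).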

Other observations

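The receptors of these ligands, which are known from T cells, NK cells and macrophages, mostly had few or no counts in the cancer cells. Of 14 listed, 13 were in the table by symbol, 4 were tested and the other 9, Pdcd1, Btla, Cd160, Cd226, Cd96 and Klrk1 among them, had at most 2 counts in any library. An exception was Tigit, the inhibitory receptor of Pvr and Nectin2, at 41.1 and 31.9 CPM with PBS. It was at 19.2 and 18.5 CPM with ATEVs, 33.1 and 24.8 CPM with NTEVs, and 23.4 and 15.3 CPM with DNase-treated ATEVs, and did not pass against PBS (edgeR adjusted p = 0.0811, 0.455 and 0.0959). For the 4 receptor genes edgeR called 0 in these comparisons, DESeq2 called 1, 0 and 1, and 1, 0 and 3 had an unadjusted p under 0.05, against 21.9%, 19.1% and 24.7% of all genes. Over all genes DESeq2 called 1476, 770 and 1485 in these comparisons with PBS. Havcr2, Itgb2 and Tnfrsf9, the other receptor genes tested, had group means of at most 6.47 CPM. Of 10 markers of myeloid and B cells, Adgre1, Itgax and Ms4a1 were at 0 in every library, and 3 were tested. Cd14 was at 99.7 and 67.1 CPM with PBS, 152 and 165 CPM with ATEVs (log2 0.93, edgeR adjusted p = 0.0698, with 1 of the 3 markers called by DESeq2) and 105 and 121 CPM with NTEVs. It rose to 270.0 and 195 CPM with DNase-treated ATEVs (edgeR adjusted p = 0.0284), where edgeR called 2.16% of all genes higher and 0.855% lower. Cd68 and Csf1r did not pass in any comparison against PBS and were at most at 5.50 and 0.437 CPM in any library. The Cd14 call was lost without PBS library 1 (0.129), PBS library 2 (0.203), DNase-treated library 1 (0.0912) or DNase-treated library 2 (0.0799). Of 9 markers of fibroblasts and endothelium 3 were tested and edgeR and DESeq2 called 0 in the 3 comparisons against PBS, with 0, 0 and 1 at an unadjusted p under 0.05.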
